A study of Mus musculus with 14 samples.

Results

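The nuclei described here are those that carry the deposited label CP_6 and come from mouse brain. They were chosen by that label alone, and number 1815, which is 1092 of 16649 nuclei in the control library and 723 of 14675 in the knockout library. That is 5.79% of the brain nuclei and makes CP_6 the 5th largest of 21 labels. The files hold 109000 nuclei in all, the others being from retina. The question asked of CP_6 was whether its ciliated nuclei carry the genes of ependymal cells or those of choroid plexus epithelium.

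The study asked what happens in the central nervous system when vascular endothelial cells lose TGF-beta signaling. Brain nuclei came from 1 library of control mice, labeled wild type, and 1 library of *Tgfbr1* conditional knockout (CKO) mice, each a pool of 2 brains taken at postnatal day 14. The CKO mice carried 1 floxed and 1 null allele of *Tgfbr1* and the tamoxifen-inducible Cre line *Cdh5CreER*, and received 4-hydroxytamoxifen from postnatal day 3 to 5. That Cre line is driven by an endothelial promoter, so CP_6 nuclei are not among the cells it was meant to recombine. The null allele is not limited to endothelial cells, so CP_6 nuclei of CKO mice carry it too. The full genotype and treatment of the control mice are not given in the labels. The tissue was enriched for vascular fragments before nuclei were taken, so shares of nuclei describe these preparations and not the intact brain.

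Ependymal cells line the cerebral ventricles and beat motile cilia that move cerebrospinal fluid over their surface. Choroid plexus epithelium lies in the same ventricles, secretes that fluid and carries the thyroid hormone transporter transthyretin, the product of *Ttr*. Both are switched to multiple cilia by related transcription factors, among them FOXJ1 and RFX proteins, and in the ependyma the axonemes carry dynein arms, radial spokes and a central pair of microtubules.

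The control library held 1092 CP_6 nuclei with 3300762 UMIs (unique molecular identifiers, each counting 1 RNA molecule), a median of 1307 per nucleus. The CKO library held 723 CP_6 nuclei with 1366799 UMIs, a median of 869. CKO nuclei were thus the shallower of the pair. No test was made between the genotypes, since each has a single library, and every interval below is an exact 95% interval that covers counting error only. Only 2 barcodes occurred in both libraries, and for 0 of them were both nuclei labeled CP_6.

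The libraries stood apart in genes of the sex chromosomes. *Xist*, the RNA that silences an X chromosome, had a UMI in 594 of the 1092 control nuclei (54.4%) and in 2 of the 723 CKO nuclei (0.277%). A Y chromosome gene had a UMI in 222 control nuclei (20.3%) and in 185 CKO nuclei (25.6%), and 140 control nuclei had both. Over all brain nuclei, *Xist* had a UMI in 63.4% of control and 0.150% of CKO nuclei. A difference between the genotypes and a difference in the sex chromosomes of the pooled animals therefore cannot be told apart, and counts are given below with and without X and Y genes.

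CP_6 made up 6.56% of control nuclei (6.19 to 6.95) and 4.93% of CKO nuclei (4.58 to 5.29). Among nuclei with at least 1000 UMIs the shares were 6.50% and 3.69%. The share was lower in the CKO library in both cases, and the part played by depth and by the preparation was not tested.

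The label was set beside its 4 proposed markers. *Foxj1*, which encodes the transcription factor for motile cilia, stood at 511 CPM (UMIs scaled to a common total) in control and 518 in CKO, and at 2.43 over all other brain nuclei. *Dnah12*, for an inner arm dynein heavy chain, stood at 2117 and 2108 against 1.56. *Tmem212*, for a membrane protein, stood at 1629 and 1620 against 1.31. *Ccdc153*, for a coiled-coil protein of cilia, stood at 489 and 447 against 0.341. In each library all 4 were far above the other nuclei, by 211, 1353, 1239 and 1396 times when the libraries were summed.

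At least 2 of the 4 markers had a UMI in 1619 CP_6 nuclei (89.2%), in 92.4% of those from control and 84.4% of those from CKO. Outside CP_6 only 43 nuclei had that many, 7 of them labeled CP_8, so 97.4% of all such nuclei were CP_6. None of the 4 was seen in 42 CP_6 nuclei. The markers and the label thus picked out nearly the same nuclei. The clusters were made from these genes among others, so the overlap describes the label and does not test it.

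Thinned to 500 UMIs per nucleus, *Dnah12* was seen in 72.8% of 962 control nuclei and 69.9% of 505 CKO nuclei, and *Foxj1* in 29.3% and 24.8%. Thinning left out 130 control and 218 CKO nuclei as too shallow, and the nuclei kept had median depths of 1539 and 1466 UMIs. Endothelial nuclei, which should lack both genes, showed *Dnah12* in 0.243% and 0% and *Foxj1* in 0% and 0%, at median depths of 1755 and 1801. Unthinned, *Dnah12* was seen in 93.0% and 87.6% of CP_6 nuclei and *Foxj1* in 61.2% and 48.8%. Thinned to 1000 UMIs, *Dnah12* was seen in 86.8% and 79.0%. The gap between the libraries thus changed with depth, and the share was lower in CKO at each depth. It also changed with the nuclei that carry markers of other cell types, described below. Without them *Dnah12* was seen in 80.3% and 79.8% at 500 UMIs and in 94.5% and 90.7% at 1000. *Foxj1* was then seen in 33.6% and 29.8% at 500 and in 49.1% and 50.9% at 1000. Leaving them out thus did not close the gap for both genes at both depths.

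Read against the wider marker lists, CP_6 carried the ependymal markers, many of them cilia genes. A marker was called raised when its CPM was at least 2 times that of all other brain nuclei and it had a UMI in at least 5% of CP_6 nuclei. Of 37 ependymal markers in the matrix 37 were raised, where 9.32% of all genes were, and 33 were highest in CP_6 of all labels, where 10.3% of the genes with at least 100 UMIs in the brain were. The summed level of the list was 23324 CPM in control and 22959 in CKO, against 2322 in CP_8 and 452 in all other nuclei. Since labels were drawn from these genes, the counts describe the cluster and do not test it. A list of ependymal transport, channel and junction genes, most of which other cells use as well, was not particular to CP_6. Of its 28 genes 7 were raised, a share above the 9.32% of all genes. Only 1 was highest in CP_6, a share below the 10.3%. The list summed to 6665 and 6583 CPM against 30229 in CP_8 and 39432 in astrocytes. The list of ependymal markers includes *Rarres2*, encoding the secreted protein chemerin, at 470 and 393 CPM. It also holds *Spag17*, for a central pair protein, at 1332 and 1277.

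The choroid plexus list behaved otherwise. Of its 44 markers in the matrix 8 were raised in CP_6, a share above the 9.32% of all genes, and 2 of the 40 with enough UMIs were highest there, a share below the 10.3%. The other nuclei include CP_8 itself, and over the median of the other labels, or over astrocytes, 16 were raised, over CP_8 only 1. The list summed to 7793 CPM in control and 5234 in CKO, against 118084 in CP_8, and its most abundant gene in CP_6 was *Ttr*. *Ttr* stood at 5.88% of its CP_8 level, *Htr2c*, for a serotonin receptor, at 3.72%, *Kl*, for klotho, at 5.32%, *Tmem72* at 3.24% and the potassium channel subunit *Kcne2* at 2.06%. Only *Cldn3* was at 0. The 8 raised markers were *Folr1*, *Otx2*, *Sostdc1*, *Calml4*, *Lbp*, *Rdh5*, *F5* and *Msx1*, and *Calml4* and *Lbp* alone were above their level in CP_8, at 125% and 205% of it.

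**Figure D1:**
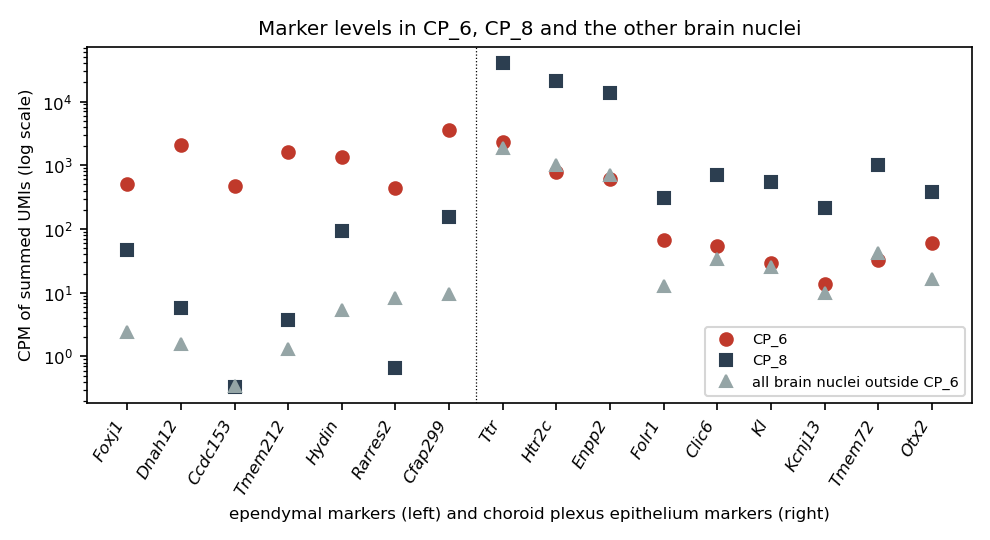
CPM of summed UMIs (log axis) of 7 ependymal and 9 choroid plexus markers, both libraries together, in CP_6 (circles), CP_8 (squares) and all brain nuclei outside CP_6 (triangles). The genes drawn were picked for illustration. Over the whole lists 33 of 37 ependymal and 2 of 40 choroid plexus markers were highest in CP_6.

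Part of that choroid plexus signal lay in few nuclei. Nuclei with at least 3 UMIs, making up at least 0.5% of their total, from the markers of neurons, oligodendrocytes or choroid plexus epithelium (*Ttr* and *Enpp2* not counted) are called mixed here. They were 226 of the control (20.7%) and 183 of the CKO nuclei (25.3%), and held 37.4% of all CP_6 UMIs. Choroid plexus markers marked 233 of them, neuron markers 229 and oligodendrocyte markers 28. The rule was set after the data were seen. Mixed nuclei made up 44.5% of the deepest decile of CP_6 nuclei and 15.3% of the shallowest, and at least 2 of the 4 ciliated markers were seen in 75.1% of them against 93.3% of the rest.

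Without the mixed nuclei, *Kl* fell to 0.554% of its CP_8 level, *Htr2c* to 0.0552% and *Tmem72* and *Kcne2* to 0%. The list sum became 2628 CPM in control and 1903 in CKO. The rule that took these nuclei out used the same markers apart from *Ttr* and *Enpp2*, so a lower sum follows from it. The count of raised choroid plexus markers was again 8, that of ependymal markers again 37, and the ependymal sum was 30615 and 31052 CPM. Whether mixed nuclei were pairs caught together was not tested; the authors had removed doublets with SOLO and by hand before deposit.

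Markers of other types were raised in part or not at all. None of 14 neuron markers was raised, but the other nuclei include neurons. Over astrocytes 3 were raised (*Syt1*, *Kcnq5* and *Grin2a*), over the median of the other labels 0. The sum of the neuron markers was 3005 CPM in control and 3419 in CKO, led by *Rbfox1*, and 419 and 208 without mixed nuclei. Of 11 oligodendrocyte markers 1 was raised (*Cnp*), with sums of 573 and 784 CPM, led by *Mbp*. Over the median of the other labels 5 of them were raised, over astrocytes 3. Astrocyte markers summed to 4341 and 4329 CPM against 63904 in astrocytes, led by *Lsamp*, and 6 of 16 were raised, among them the water channel gene *Aqp4* at 419 and 391 CPM and the gap junction gene *Gja1* at 409 and 388. Of 16 neural stem cell markers 4 were raised, among them *Sox9* at 488 and 500 CPM. Of 21 tanycyte markers 1 (*Scn7a*) and of 9 markers of secretory ependyma 1 (*Mdk*) were raised. CP_6 thus shared part of the astrocyte and stem cell lists, as of the choroid plexus list, at shares above the 9.32% of all genes that were raised, and no list other than the ependymal one was raised throughout.

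The motile cilia genes formed the core of the cluster. The 7 lists together name 181 genes, of which 157 are in the matrix, 133 were raised and 126 of the 148 with enough UMIs were highest in CP_6 of all labels. They summed to 57375 CPM in control and 57420 in CKO, against 17172 in CP_8, 3418 in astrocytes and 2468 in all other brain nuclei. The level was the same in both libraries to within 1%, and CP_8 lay between CP_6 and the rest.

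By structure, the outer dynein arms and their docking complex had 14 of 16 genes raised and summed to 6889 and 6965 CPM. The inner arms had 15 of 16 raised, at 9125 and 9171 CPM, and the factors that assemble dynein arms in the cytoplasm 13 of 15, at 2462 and 2498. These motors bend the cilium. The radial spokes, nexin links and rulers, which couple the microtubule doublets, had 25 of 25 raised, at 7227 and 7172 CPM. The central apparatus, which includes *Hydin* (1315 and 1381 CPM) and *Spef2* (1975 and 1971), had 20 of 21 raised, at 15762 and 15639. The proteins inside the microtubules had 33 of 36 raised, at 12221 and 12258. In every structural list the libraries lay close together and above CP_8.

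The lists of transport and control were less restricted to CP_6. Intraflagellar transport, which primary cilia use as well, had 27 of 31 genes raised, at 5577 and 5571 CPM against 2192 in CP_8. Transcriptional control and centriole amplification had 13 of 28 raised, at 3690 and 3717 CPM against 5131 in CP_8. That last list was the single one with a higher sum in CP_8. In it *Gmnc*, which starts the multiciliated program, stood at 131 and 55.6 CPM against 2500 in CP_8, and *Rfx3*, for a factor that drives cilia genes, at 1380 and 1371 against 1790. *Rfx2* stood at 233 and 211 CPM against 90.0 and *Myb* at 145 and 146 against 1.00, so these 2 were higher in CP_6. *Mcidas* had 3 UMIs in CP_6.

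Counted per nucleus at 500 UMIs, motile cilia genes gave a median of 8.20% of UMIs in control CP_6 nuclei (quartiles 5.80 and 10.6) and 7.40% in CKO (4.60 and 9.80). CP_8 nuclei had medians of 2.20% and 2.40%, astrocytes 0.200% and 0.200%, and endothelial nuclei 0% and 0%. Unthinned, CP_6 had 8.71% and 8.82%. The order of the libraries in CP_6 thus turned with thinning, and no difference is read from it. Without mixed nuclei the thinned medians were 9.00% and 8.60%.

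**Figure D2:**
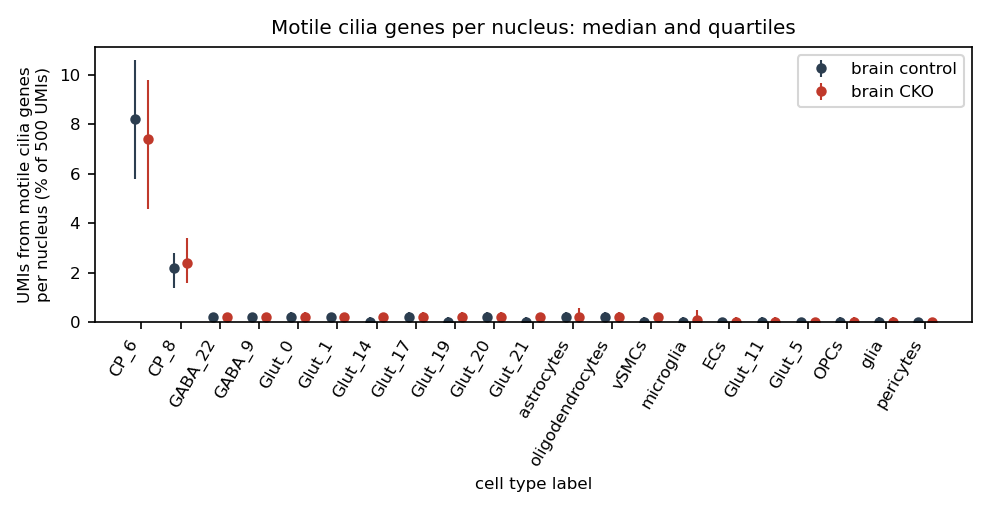
Percent of UMIs from motile cilia genes per nucleus thinned to 500 UMIs, by cell type label and library, with the median (point) and quartiles (bars). CP_6 stands at 8.20% in control and 7.40% in CKO and CP_8 at 2.20% and 2.40%, and the other labels lie at 0.200% or below.

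The 20 genes with the largest fold over all other brain nuclei were all highest in CP_6. *Dnah12*, *Dnah3* and *Nme9* among them are in the cilia lists. The others are not, and include *Ccdc153*, *Tmem212*, *B3gnt4*, *Frmpd2*, *Lrrc36* and the predicted genes *Gm47888* and *Gm12695*. *Dthd1*, for a death domain protein, stood at 463 CPM in control and 428 in CKO against 0.210 in the other nuclei. *Unc5cl* stood at 615 and 705 against 0.446, and *Cdhr3*, a cadherin-related gene, at 533 and 591 against 0.433. None of these differed by 2-fold between the libraries.

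The next question was what differed between the CKO and control nuclei. The ratio of CKO to control CPM was taken for the 6942 genes with at least 100 UMIs in CP_6, and a gene was called past the fold at a ratio of at least 2 or at most 0.5. By that rule 34 genes were higher in CKO (0.490%) and 85 were lower (1.22%), and the median log2 ratio of all tested genes was 0.01. Without X and Y genes the counts were 31 and 77. The counts moved with the nuclei used: without mixed nuclei 29 genes (0.621%) were higher and 145 (3.10%) lower of 4670 tested, and with each nucleus weighted equally 346 and 380. Without *Xist* nuclei, which were almost all from control and deep, 669 were higher and 60 lower of 3782 tested. The balance of higher and lower genes therefore rests on which nuclei are taken.

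Over all members the motile cilia genes showed little shift between the libraries. Of 138 tested, 0 were higher in CKO and 2 were lower, *Gmnc* and *Cep152*. Of all tested genes 0.490% were higher and 1.22% lower, so these counts say little about the list. The median log2 ratio of the 138 was 0.00, beside 0.01 for all tested genes. For the motile cilia genes it was -0.12 in nuclei with at least 1000 UMIs and -0.59 without nuclei that had a *Xist* UMI. That last setting takes deep nuclei from the control library almost alone. The flat median thus depends on the nuclei used. *Gmnc* gave a ratio of 0.423 (0.327 to 0.541), and 0.880 in CP_8. With nuclei weighted equally it was 0.727, not past the fold. *Cep152*, which serves centriole duplication, stood at 28.5 and 13.9 CPM, a ratio of 0.488 (0.281 to 0.805). Without mixed nuclei both fell under 100 UMIs and could not be tested, so nothing is read from their ratios there. The 4 proposed markers gave ratios of 1.01 for *Foxj1* (0.928 to 1.11), 0.996 for *Dnah12* (0.953 to 1.04), 0.914 for *Ccdc153* (0.832 to 1.00) and 0.995 for *Tmem212* (0.946 to 1.04). Without *Xist* nuclei they were 0.701, 0.636, 0.568 and 0.633, so these too depend on the nuclei used.

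**Figure D3:**
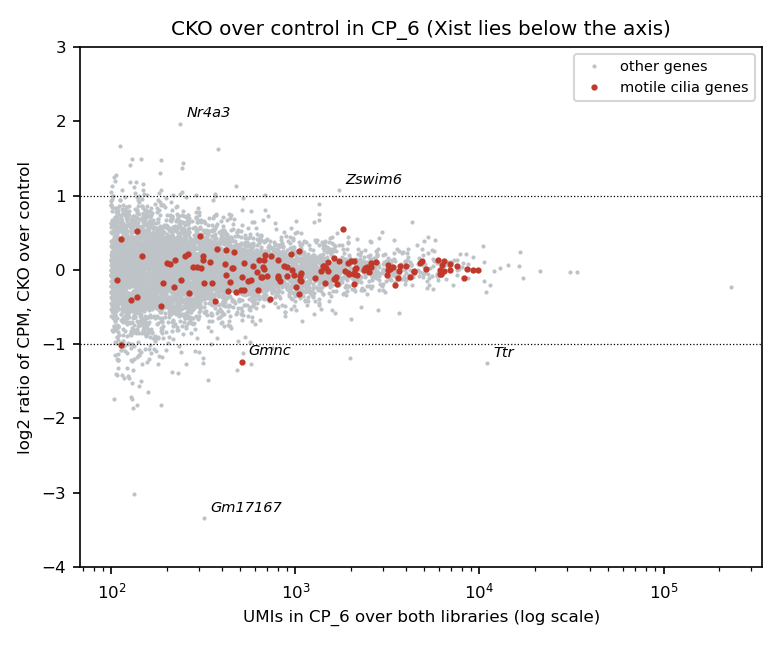
Log2 ratio of CPM, CKO over control, for each gene with at least 100 UMIs in CP_6 against its UMIs (log axis), motile cilia genes in red. The dotted lines mark 2-fold, *Xist* lies below the axis, and of the motile cilia genes 2 fall past the lower line.

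Among genes with at least 200 UMIs, the highest ratio belonged to *Nr4a3*, which encodes an orphan nuclear receptor induced as an immediate early gene. It stood at 27.3 CPM in control and 107 in CKO, a ratio of 3.92 (2.99 to 5.15), and 1.48 in all other nuclei. *Sik1*, for salt-inducible kinase, stood at 35.5 and 91.5 CPM, a ratio of 2.58 (1.99 to 3.35). Without mixed nuclei they gave 4.60 and 2.82, and without *Xist* nuclei 2.42 and 1.42, so *Sik1* was then not past the fold. The immediate early list as a whole had 4 genes tested and 1 past the fold, *Nr4a3*, with sums of 307 and 451 CPM.

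*Irs2*, for insulin receptor substrate, stood at 75.7 CPM in control and 165 in CKO, a ratio of 2.18 (1.82 to 2.62). *Zswim6* stood at 277 and 585 CPM with a UMI in 42.4% of nuclei, a ratio of 2.11 (1.92 to 2.32). *Fam20a* stood at 34.8 and 94.4 CPM, a ratio of 2.71 (2.09 to 3.51). In nuclei with at least 1000 UMIs *Irs2* gave 1.88 and *Zswim6* 1.93, both short of the fold, and *Fam20a* 2.56. *Fam20a* gave 4.00 with nuclei weighted equally and 4.70 without *Xist* nuclei. Of these *Fam20a* alone was past 2-fold in every setting in which it could be tested. The ratios in all other nuclei summed were 0.901, 1.03 and 0.844, and such sums also change with the makeup of cell types. *Pros1*, for the anticoagulant protein S, gave 2.03 and *Zdhhc14* 2.02, and the other members of the 10 highest were the Y genes *Uty* (3.10), *Ddx3y* (2.06) and *Eif2s3y* (2.02).

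At the low end, *Xist* gave a ratio of 0.00119 (0.000144 to 0.0043) and *Gm17167* 0.0950 (0.0486 to 0.168), the latter at 92.4 CPM in control and 8.78 in CKO. *Gm17167* was also low in all other nuclei, at 0.217. *Uaca* stood at 88.5 and 31.5 CPM, a ratio of 0.356 (0.252 to 0.491), with 1.62 in all other nuclei. *Amotl1*, for an angiomotin-like junction protein, gave 0.378 and *Msn*, for moesin, a linker of membrane and actin, 0.415. *Frmd3* (0.379), *Gm8797* (0.392), *Arsb* (0.412) and *Pde1a* (0.413) also belonged to the 10 lowest. Several of these values moved with the nuclei used. *Gm8797* gave 0.587, not past the fold, without *Xist* nuclei. With nuclei weighted equally *Msn* gave 0.195, *Frmd3* 0.201 and *Uaca* 0.227. Without mixed nuclei *Arsb* gave 0.227 and *Gm17167* 0. *Pde1a* was at 149 and 61.5 CPM with 11.5% of nuclei positive, and its ratio was unstable: 0.0632 without mixed nuclei, 0.206 with nuclei weighted equally and 0.877, not past the fold, without *Xist* nuclei.

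*Ttr* closed the 10 lowest, at 2838 CPM in control and 1188 in CKO, a ratio of 0.419 (0.397 to 0.441). The ratio was 0.419 without mixed nuclei, 0.298 in nuclei with at least 2 of the 4 markers, and 0.587, not past the fold, with nuclei weighted equally. In CP_8, where the gene belongs, it was 0.966. At 500 UMIs *Ttr* was seen in 34.6% and 24.0% of CP_6 nuclei, and in 21.3% and 13.8% of endothelial nuclei, which should lack it. Of the 20 other labels *Ttr* was lower in CKO in 16 and higher in 4. Endothelial nuclei had 1113 CPM of *Ttr* in control and 472 in CKO, astrocytes 187 and 386, and oligodendrocytes 32.2 and 140. How far free RNA carries the gene was not tested. *Kl* (0.434) and *Prlr* (0.442) were the other choroid plexus markers past the fold. That made 3 of 24 tested, where 1.22% of all tested genes were lower. Most of the *Kl* level came with mixed nuclei, as given above.

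*Tgfbr1* itself was scarce in CP_6, at 21.5 CPM in control and 15.4 in CKO, a ratio of 0.714 (0.417 to 1.18) from 92 UMIs. That is under the 100 UMIs asked of a tested gene, so no difference is read from it, and a 3′ tag outside the deleted part would not report the deletion. *Tgfbr2*, for the partner receptor, stood at 230 and 163 CPM, a ratio of 0.710 (0.608 to 0.825). It was lower in CKO in CP_8 too, at 157 and 109 CPM, and in glia, at 201 and 150, and higher in endothelial nuclei, at 396 and 742, and in vascular smooth muscle, at 210 and 271. Microglia had 1126 and 68.3 CPM, the latter from 1 UMI. Of 24 TGF-beta and BMP pathway genes tested 1 was past the fold, where 0.490% of all tested genes were higher and 1.22% lower. A single gene of 24 says little about the list. It was *Pmepa1*, a target and feedback inhibitor of the pathway, at 30.3 and 63.7 CPM and a ratio of 2.10 (1.56 to 2.83). The median log2 ratio of that list was 0.04.

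The interferon and antigen presentation list was lower as a sum in CKO, at 342 CPM in control and 173 in CKO, a ratio of 0.505 (0.437 to 0.582), and 0.454 without mixed nuclei. Only 3 of its 38 genes in the matrix could be tested, 0 of them past the fold, and its most abundant gene was *Ifi27*. For the other lists the counts of called genes say little, since of all tested genes only 0.490% were higher and 1.22% lower. Gliosis genes had 0 of 7 past the fold, hypoxia and glycolysis 0 of 15, cell cycle 0 of 4, and ependymal transport, channels and junctions 0 of 23. Planar cell polarity genes, which orient cilia across the epithelium, had 0 of 13 past the fold, with sums of 3008 and 3462 CPM. Regional transcription factors had 0 of 12.

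CP_6 was not of 1 piece. Clustered again on its own, it gave 12 sub-clusters, which are described and not named. Sub-cluster 0, the largest, had 335 nuclei, of which 331 were control and 96.1% had a *Xist* UMI; it may be that library and not a type. Without X and Y genes 13 sub-clusters formed and none drew over 90% of its nuclei from 1 library. Sub-clusters 1, 9 and 10, with 272, 77 and 76 nuclei, carried markers of other types: the neuron list summed to 9527 CPM in the first, the choroid plexus list to 49093 in the next and the oligodendrocyte list to 2542 in the last. At least 2 of the 4 ciliated markers were seen in 72.4%, 77.9% and 90.8% of their nuclei.

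The remaining sub-clusters differed in choroid plexus signal, with list sums from 1451 CPM in sub-cluster 4 to 9317 in sub-cluster 6. *Ttr* stood at 6908 CPM in sub-cluster 6 and 5354 in sub-cluster 11. The summed ependymal markers of the remaining sub-clusters ranged from 29488 CPM in sub-cluster 2 to 46928 in sub-cluster 8. The first had 263 nuclei with a median of 2152 UMIs, the other 81 nuclei with a median of 535. The part played by depth in this range was not tested. Sub-clusters without *Ttr* and with much of it thus both carried the ependymal markers. At a finer resolution, 17 sub-clusters formed, one of them of 44 nuclei, 19 control and 25 CKO, led by *Sspo*, which encodes the secreted SCO-spondin, at 3630 CPM. It had that 1 secretory ependyma marker among its 10 leading genes, so it is given no name.

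Motile cilia genes are known targets of RFX factors, so their promoters were searched for the letters GTTGCC or, on the other strand, GGCAAC, the inner part of an RFX site. The window was the 250 bases before to 50 after the start in RefSeq on GRCm38.p6, matched by symbol. Of 143 promoters of the 126 motile cilia genes matched, 61 held it (42.7%, 34.4 to 51.2), against 4111 of all 32851 (12.5%). The share was not particular to the motile cilia genes, since 12 of 26 intraflagellar transport promoters held it (46.2%, 26.6 to 66.6). Among the 20 genes of largest fold 3 of 14 promoters held it (21.4%, 4.66 to 50.8). Among choroid plexus markers 9 of 47 promoters held it (19.1%, 9.15 to 33.3). By structure the share was 72.7% for 11 promoters of assembly factors and 9.09% for 11 of outer arm genes. The longer form GTTNCC, up to 3 bases and GGNAAC stood in 4.20% of motile cilia promoters and 0.804% of all. A match is a description of letters and not of binding.

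Of the 4 proposed markers, *Ccdc153* had a match in the 250 bases before its start, *Dnah12* and *Tmem212* had none, and *Foxj1* had no entry. The promoter of *Ccdc153* (chr9:44240427-44240676, plus strand) is shown because it is a marker with the motif. *Cfap161* (chr7:83794840-83795089, minus strand) and *Fbxl13* (chr5:21645606-21645855, minus strand) are shown as the motile cilia genes of high fold over the rest with more than 1 match; they were picked for holding the motif. Each runs 5′ to 3′ on its own strand, with the motif in capitals.
Ccdc153: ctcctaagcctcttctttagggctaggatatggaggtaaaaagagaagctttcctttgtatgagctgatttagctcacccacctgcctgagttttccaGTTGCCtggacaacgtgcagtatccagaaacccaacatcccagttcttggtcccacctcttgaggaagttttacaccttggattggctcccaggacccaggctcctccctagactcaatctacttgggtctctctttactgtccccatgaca
Cfap161: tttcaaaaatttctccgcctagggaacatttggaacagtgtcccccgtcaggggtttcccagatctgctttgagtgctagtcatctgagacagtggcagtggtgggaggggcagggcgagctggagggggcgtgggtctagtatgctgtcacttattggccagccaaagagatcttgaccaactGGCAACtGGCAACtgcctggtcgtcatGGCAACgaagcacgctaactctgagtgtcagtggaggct
Fbxl13: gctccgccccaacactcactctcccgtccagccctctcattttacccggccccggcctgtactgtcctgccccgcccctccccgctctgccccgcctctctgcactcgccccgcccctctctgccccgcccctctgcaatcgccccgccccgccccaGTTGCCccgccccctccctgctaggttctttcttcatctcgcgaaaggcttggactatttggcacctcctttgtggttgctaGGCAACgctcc

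These values carry limits. Each genotype has 1 library, so differences of genotype, sex chromosomes, dissociation and sequencing depth are joined, and no difference between them was tested. The control nuclei were deeper, and mixed nuclei held a large part of the UMIs. RNA counts from nuclei do not report protein or beating cilia. The tissue was enriched for vessels, which leaves the place of CP_6 nuclei in the brain unknown. Marker lists came from common knowledge of these cells. On those lists CP_6 carried the ependymal markers of the ciliated kind. Transport and junction genes were raised in part, and their sum lay below that of CP_8 and of astrocytes. CP_6 had most choroid plexus genes at low levels beside CP_8. Motile cilia genes had the same summed level in both libraries over all members, but not in every selection of nuclei.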

How the data were processed

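The values are UMI counts per gene and nucleus. Before deposit the authors aligned PIPseq T20 3′ libraries with PIPseeker to GRCm39, removed background with CellBender and doublets with SOLO, removed mixed nuclei by hand, and labeled clusters in Seurat; the submitters' notes name mm10. The deposited counts were summed per library over the nuclei labeled CP_6, the barcode suffix giving the library, and scaled to CPM. Members and gene lists were chosen with earlier results of these data known. Ratios have exact conditional binomial, shares exact binomial and sums exact Poisson 95% intervals; log2 ratios had 0.5 UMIs added. Nuclei were thinned without replacement to 500 UMIs, seed 0. Sub-clusters used scanpy 1.11.5 and leidenalg 0.10.2 on 2000 variable genes, 20 principal components, 15 neighbors and resolution 0.5. The scripts ran in Python 3.11.15 with anndata 0.12.19, pandas 2.3.3, scipy 1.17.1, matplotlib 3.10.9 and numpy 2.4.6, and edgeR 4.0.16 in R 4.3.3 gave TMM factors for an alternative. The ratio and raised calculations were tested on simulated data. Retinal nuclei were not used.

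Genes were named by a rule: the 4 proposed markers; the 20 of largest fold of CP_6 over other brain nuclei and the 10 of highest CPM, with at least 200 UMIs and UMIs in 5% of nuclei; the 10 highest and 10 lowest ratios with at least 200 UMIs; the 10 of largest fold over CP_8 and the reverse; the leading and past-fold members of each list; and *Tgfbr1*, *Tgfbr2*, *Xist* and Y genes. Not every gene that met the rule is named above. Past-fold members left out include *Prom1* (stem cell list), *Acta2* (pericyte and smooth muscle list) and *Ranbp3l* (fibroblast list), all lower in CKO. Other genes named were chosen after their values were seen. RefSeq promoters on GRCm38.p6 were matched by symbol only, and no coordinates were shared between builds.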

Additional observations from a re-analysis of the deposited data

Results flagged for a closer look

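For 3 genes, CP_6 and the other brain nuclei moved past 2-fold in opposite directions between the libraries. *Tgm2* gave a CKO to control ratio of 0.275 in CP_6 and 2.32 in the other nuclei. *Txnip* gave 0.276 and 2.35, and *Tcf3* gave 0.385 and 2.24. In CP_6 these rest on 14, 19 and 18 CKO UMIs. The difference between the nuclei was not tested, since each genotype has 1 library, and the sum over the other nuclei also changes with the makeup of cell types.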

How the results depend on the processing

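No paired analysis was possible because each genotype has 1 library. Alternatives based on mixed nuclei, on *Xist* and on sub-clusters without X and Y genes were chosen after seeing the data. The causes of the changes below were not tested, except where a setting tests fewer or more genes by construction.

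The share of CP_6 became 8.08% in control and 6.23% in CKO without vascular nuclei in the denominator, and in CKO 3.69% with nuclei of at least 1000 UMIs. Nuclei with at least 2 of the 4 markers, whatever their label, made up 6.21% of control and 4.28% of CKO nuclei. The count of genes higher in CKO, 34, became 144 at 50 UMIs, 12 at 200, 346 with nuclei weighted equally, 669 without *Xist* nuclei, 292 at a fold of 1.5 and 0 at 4. The count lower, 85, became 263 at 50 UMIs, 20 at 200, 380 with nuclei weighted equally, 145 without mixed nuclei, 334 at a fold of 1.5 and 3 at 4. Without nuclei with 3 or more choroid plexus UMIs 22 were lower and 31 higher, but only 1877 genes were tested there against 6942. Without *Xist* nuclei 9 of the 34 and 2 of the 85 were still past the fold, among 3782 genes tested; that setting removes deep control nuclei.

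Motile cilia genes higher in CKO, 0, became 1 with nuclei weighted equally and 2 without *Xist* nuclei. Those lower, 2, became 1 at 200 UMIs, 1 with nuclei weighted equally, 1 with at least 1000 UMIs, 1 with at least 2 markers, 0 without nuclei with choroid plexus UMIs, 0 without mixed nuclei and 3 without *Xist* nuclei. Their median log2 ratio, 0.00, became -0.05 with TMM, -0.12 with at least 1000 UMIs, -0.10 without nuclei with choroid plexus UMIs, 0.04 without mixed nuclei and -0.59 without *Xist* nuclei. That last setting alone shifted the list by over 0.2, and it compares nuclei of unlike makeup.

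Raised choroid plexus markers, 8, became 16 over the median of other types, 1 over CP_8, 16 over astrocytes and 4 at a fold of 4. The share of UMIs per nucleus from motile cilia genes became 7.40% in control and 6.40% in CKO at 1000 UMIs, 8.71% and 8.82% unthinned, and 9.00% and 8.60% without mixed nuclei. The longer RFX motif stood in 4.20% of motile cilia promoters and 0.804% of all. Of 547 ratios of 62 named genes under alternatives, 419 stayed within the counting interval, 128 moved beyond it and 0 called ones turned direction. The other 46 of 88 values stayed, among them every count of raised ependymal markers (36 or 37) and of motile cilia genes highest in CP_6 (114 to 132).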

Other observations

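Taken without nuclei that had a *Xist* UMI, CP_6 kept its 723 CKO nuclei but for 2 and lost 594 of its 1092 control nuclei. Those lost were deep, with a median of 2298 UMIs against 880 in the 498 control nuclei kept, and 31.5% of them were mixed against 7.83% of those kept. Motile cilia genes made up a median of 7.11% of UMIs in the first and 10.5% in the second, against 8.82% in CKO nuclei. The selection thus changed depth and mixing along with *Xist*.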
